A study of Sus scrofa with 12 samples.

Results

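Collagen genes were examined as targets of C/EBP-β, a basic leucine zipper transcription factor, in the pig endometrium (uterine lining). The members were all protein-coding genes of the Sscrofa11.1 RefSeq annotation whose symbol is COL, a number, A and a number. This gave 43 of 20663 protein-coding genes. Of these, 42 lie on assembled chromosomes, among 19550 protein-coding genes there. COL6A2 lies on unplaced sequence and was not analysed. The 42 genes were divided into 11 fibrillar collagens, 6 basement membrane (type IV) collagens and 25 others. The others comprised 10 FACIT collagens (fibril-associated, with interrupted triple helices), 5 genes of beaded filament and related types, 4 transmembrane, 3 short-chain, 2 multiplexin and 1 anchoring fibril collagen.

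Collagens are triple-helical proteins that give tissues their tensile frame. Fibrillar types I, III and V assemble into the cross-striated fibrils of the uterine stroma, while type IV forms the sheet-like network of the basement membranes under epithelium and around vessels and muscle cells. The other types coat fibrils, anchor membranes or span the cell surface. In the pig the endometrium is remodelled around day 12, when the conceptuses elongate, and through day 15, when they attach to the uterine surface.

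Tissue came from pregnant pigs on day 12 (3 ChIP libraries) and day 15 (3 ChIP libraries), and chromatin was immunoprecipitated with an anti-C/EBP-beta antibody in all 6. The labels name no breed, age, genotype or treatment. They do not say whether replicates came from separate animals, so the spread between libraries may be technical. The 6 input samples were not analysed. In bulk tissue, binding per cell and the share of cells of a type cannot be told apart.

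Each library is a list of peak summits, positions 1 bp wide with a score, and sequencing depth is unknown. List length differed widely within a day. The numbers of summits on assembled chromosomes were 6557, 33294 and 57728 in the day 12 replicates (1 to 3), against 70152, 16529 and 11960 for day 15. A longer list touches more genes, so counts of collagen genes are read against the share of all protein-coding genes under the same rule. The peak names also fall into 2 processing sets, those with a directory path (set A: day 12 replicate 1, day 15 replicates 2 and 3) and those without (set B: day 12 replicates 2 and 3, day 15 replicate 1). A single sample code is used in the names of both day 15 lists of set A. Of these, the names of replicate 3 lack the protein, so its identity as C/EBP-β ChIP rests on its label.

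Collagen gene ends carried summits less often than gene ends in general. A gene counted as bound on a day when at least 2 of 3 libraries had a summit within 5 kb of either gene end. The annotation gives no strand, so the 2 ends of a gene are called lower and upper by coordinate, and which of them is the transcription start is not stated here. On day 12, 9 of 42 collagen genes were bound (21.4%), against 38.1% of all protein-coding genes. On day 15 it was 12 of 42 (28.6%), against 46.3% of all. Both days shared 5 of them (11.9%, against 30.5% of all), and 20 of 42 (47.6%) had no summit near an end in any library, against 29.5% of all. Per library, 2, 8 and 16 collagen genes had a summit near an end on day 12 (4.76%, 19% and 38.1%) and 18, 10 and 10 on day 15 (42.9%, 23.8% and 23.8%). The shares of all protein-coding genes were 17.2%, 38.4% and 54.1% on day 12 and 64.8%, 44.6% and 37.6% on day 15. Day 12 libraries had a mean of 8.67 ± 7.02 such genes (SD, n = 3). Day 15 libraries had 12.7 ± 4.62 (SD, n = 3). This difference of 4 genes was smaller than the spread between libraries of a day. The difference was 8 genes in set A and 6 in set B. As a share of the collagen genes it was 9.52 points, with 19 in set A and 14.3 in set B. Over all protein-coding genes the same difference was larger, at 12.4 points, with 23.9 in set A and 18.5 in set B. Leaving out day 12 replicate 1 gave a difference of 0.667 collagen genes. Leaving out day 12 replicate 3 gave 7.67 and leaving out day 15 replicate 1 gave 1.33. Without day 12 replicate 2 the day 12 count was 2 (16.6% of all genes) and without replicate 3 it was 1 (15% of all), since both remaining libraries then needed a summit. Without day 15 replicate 1 the day 15 count was 7, against 34.5% of all.

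Summits inside the genes were more frequent, and collagen genes are long. Their median length was 140 kb, against 20.7 kb for all protein-coding genes. Of 486 summits in collagen gene windows (the body and 5 kb either side, summed over libraries), 75.9% lay inside the gene more than 5 kb from both ends, against 47.8% for all genes. Such interior summits were present in at least 2 of 3 libraries for 20 of 42 collagen genes on day 12 (47.6%, against 24% of all genes), 17 on day 15 (40.5%, against 13.4%) and 13 on both days (31%, against 11.7%). In all 6 libraries they were present for 6 collagen genes (14.3%, against 4.68%), and 10 (23.8%) had none, against 62% of all. Genes too short to have such an interior count among all genes, so these interior shares are not matched for length. A summit anywhere in the window was present in at least 2 of 3 libraries for 25 of 42 collagen genes on day 12 (59.5%, against 50.9% of all) and 22 on day 15 (52.4%, against 52.9% of all), with 18 on both days (42.9%, against 40.4%). Among genes of at least 150 kb, these shares were 14 of 18 collagen genes (77.8%) against 85.3% on day 12 and 10 of 18 (55.6%) against 71% on day 15. Between 50 and 150 kb they were 8 of 11 (72.7%) on each day, against 69.3% on day 12 and 62.7% on day 15. Under 50 kb they were 3 of 13 (23.1%) against 41.7% and 4 of 13 (30.8%) against 48%. Per kilobase the windows of collagen genes held fewer summits than those of all genes in each of the 6 libraries. The ratio was 0.357, 0.459 and 0.679 on day 12 and 0.722, 0.637 and 0.792 on day 15. For interior summits alone it was 0.703, 0.553 and 0.848 on day 12 and 0.893, 1.25 and 2 on day 15, so 2 day 15 lists lay above all genes. Without day 12 replicate 2 the window count of day 12 was 8 (23.1% of all genes), without replicate 3 it was 8 (21.8% of all), and without day 15 replicate 1 that of day 15 was 13 (39.7% of all).

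**Figure D1:**
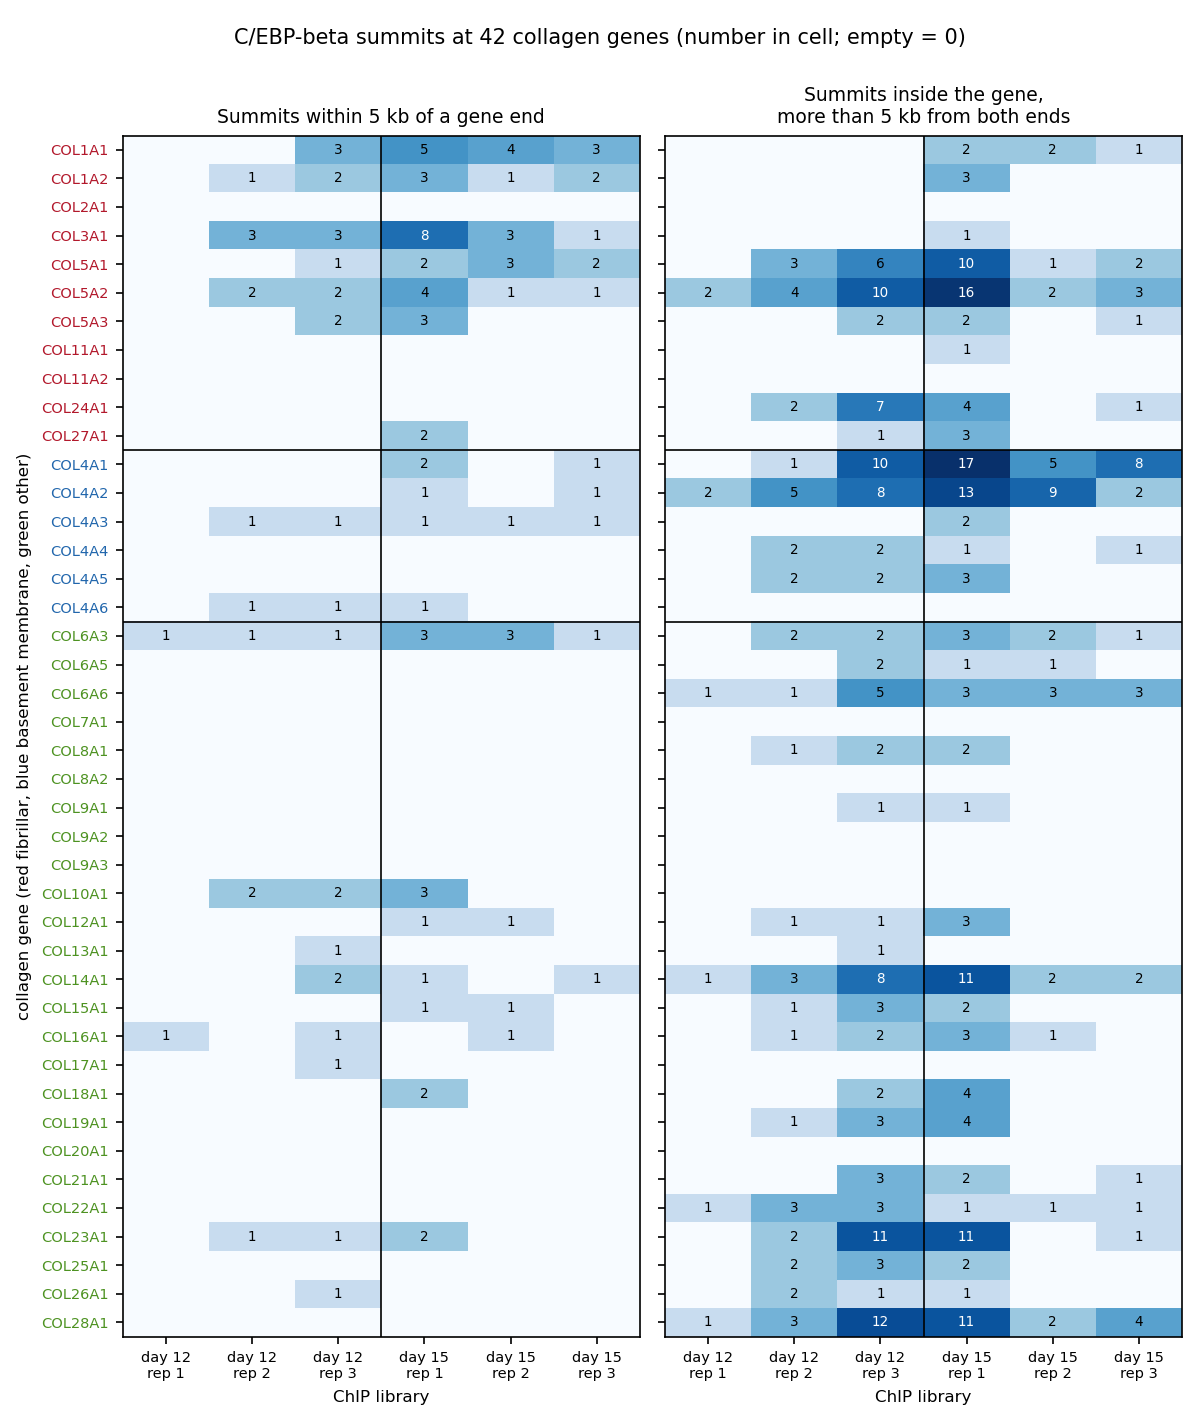
Summits at each of 42 collagen genes (rows, grouped by class) in each of the 6 libraries (columns). The left panel counts summits within 5 kb of either gene end and the right panel those farther inside the gene. Darker cells hold more summits and empty cells hold 0. Summits near ends gather in a few fibrillar genes and COL6A3, and those in the interior in long genes such as COL5A2, COL4A1, COL4A2, COL14A1, COL23A1 and COL28A1.

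Among the fibrillar collagens, most summits near gene ends belonged to 5 genes of types I, III and V. On day 15 the ends of COL1A1, COL1A2, COL3A1, COL5A1 and COL5A2 had a summit in 3 of 3 libraries. On day 12 COL1A2, COL3A1 and COL5A2 had them in 2 of 3, and COL1A1 and COL5A1 in 1 of 3. The class thus had 3 of 11 genes bound on day 12 (27.3%) and 5 of 11 on day 15 (45.5%), against the 38.1% and 46.3% of all protein-coding genes. The other 6 fibrillar genes were not bound near an end on either day. COL5A3 had end summits in day 12 replicate 3 and day 15 replicate 1 only, and COL27A1 only in the latter. COL11A1, COL24A1, COL2A1 and COL11A2 had none.

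COL1A1 encodes the α1 chain of type I collagen, the main fibril protein (gene ID 100738123, chromosome 12, 26379087 to 26397180 on Sscrofa11.1). Its window held 0, 0 and 3 summits in day 12 replicates 1 to 3 and 7, 6 and 4 in the day 15 libraries. Scaled to the list, that is 0, 0 and 0.52 summits per 10000 on day 12 and 0.998, 3.63 and 3.34 on day 15. The 3 day 15 libraries were higher than the 3 day 12 libraries, including the day 15 lists that were shorter than those of day 12 replicates 2 and 3. In the short list of day 12 replicate 1, however, 1 summit would count as 1.53 per 10000, above the 0.998 of day 15 replicate 1. A region 0.283 kb inside the upper end (26396787 to 26397007) had a summit in all 3 day 15 libraries and none of day 12. More than 5 kb from both ends, COL1A1 had summits in 3 of 3 day 15 and 0 of 3 day 12 libraries. That pattern was shown by 1 of 42 collagen genes and by 0.153% of all protein-coding genes, which include genes too short for such an interior. In day 12 replicate 3, a summit 4.929 kb from the lower end fell just short of the interior. The interior summits of day 15 stood at percentiles 2.7 to 26.2. Summits of COL1A1 ranked low throughout. The best ones lay near an end, at percentile 61.1 of the scores in day 12 replicate 3 and at 31.9, 44.4 and 42.4 in the day 15 lists.

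COL1A2, the partner chain of type I (gene ID 100626716, chromosome 9, 74174484 to 74210407), had 0, 1 and 2 window summits on day 12 and 6, 1 and 2 on day 15. Scaled to the list these were 0, 0.3 and 0.346 per 10000 against 0.855, 0.605 and 1.67, so the days did not overlap. The 0.605 is 1 summit, and 1 summit in day 12 replicate 1 would count as 1.53, so a single call could undo this separation. The most shared region of COL1A2 lay 1.32 kb inside its lower end, with summits in 4 libraries, 2 of each day.

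COL3A1, type III collagen (gene ID 100152001, chromosome 15, 93556914 to 93595678), had 0, 3 and 3 window summits on day 12 and 9, 3 and 1 on day 15. Per 10000 of the list, these were 0, 0.901 and 0.52 against 1.28, 1.81 and 0.836, and the days overlapped. The most shared regions of COL3A1 had summits in 3 libraries. Within 2 kb of the lower end, summits were seen in day 15 replicates 1 and 2 and in no day 12 library.

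Type V collagen nucleates fibrils and limits their width. COL5A1 (gene ID 397533, chromosome 1, 273934219 to 274083264) had 0, 3 and 7 window summits on day 12 and 12, 4 and 4 on day 15. Its scaled values were 0, 0.901 and 1.21 per 10000 on day 12 and 1.71, 2.42 and 3.34 on day 15, again without overlap. A region 2.32 kb inside the lower end of COL5A1 had a summit in day 12 replicate 3 and all day 15 libraries. COL5A2 (gene ID 397532, chromosome 15, 93611856 to 93981131) was the only fibrillar gene with a window summit in all 6 libraries. It had 2, 6 and 12 summits on day 12 and 20, 3 and 4 on day 15, which overlapped after scaling (3.05, 1.8 and 2.08 against 2.85, 1.81 and 3.34). One of its regions, 44.8 kb inside the upper end (93936250 to 93936325), had a summit in all 6 libraries at percentiles 45.3 to 89.8. The region at its upper end (93980870 to 93981089, 5 libraries) also lay within 5 kb of WDR75, which overlaps COL5A2, so these summits count for both genes.

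**Figure D2:**
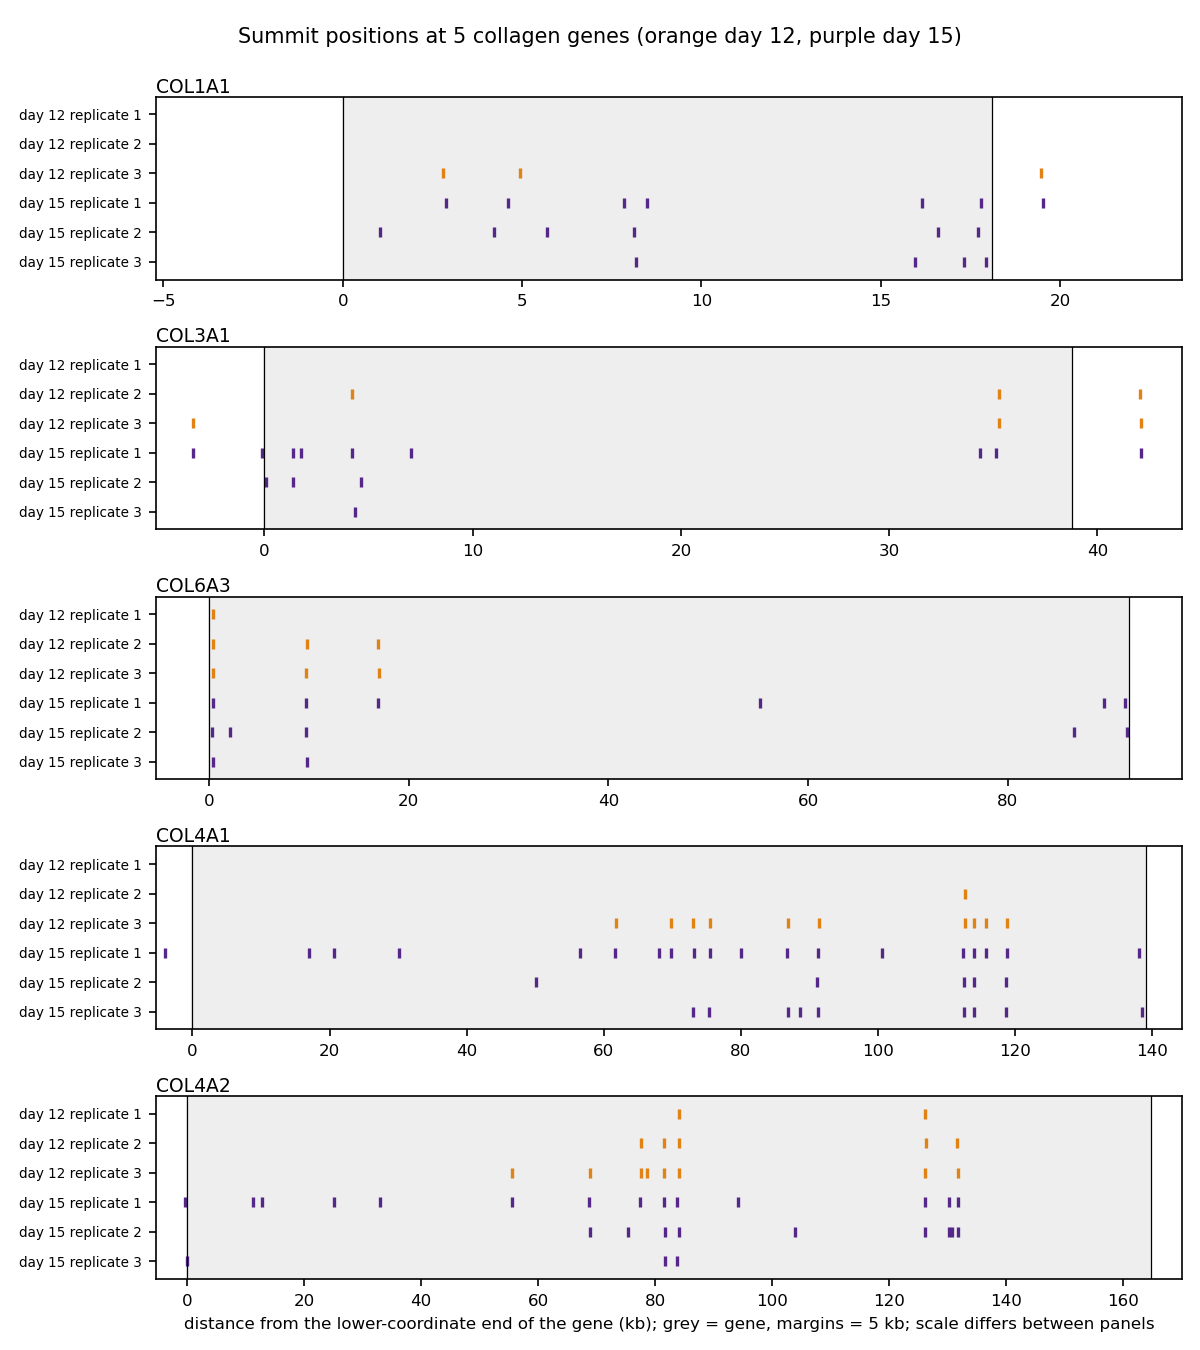
Positions of summits along COL1A1, COL3A1, COL6A3, COL4A1 and COL4A2 in each library, in kb from the lower-coordinate end of each gene. Grey marks the gene and the margins 5 kb either side. Orange ticks are day 12 and purple ticks day 15. COL6A3 has a column of ticks 0.364 kb inside its lower end in all 6 libraries, while the ticks of COL4A1 and COL4A2 lie mostly in the interior.

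Among type IV collagens, COL4A1 and COL4A2 carried most summits, and carried them inside the gene rather than at the ends. Near an end, 2 of 6 genes were bound on day 12 (COL4A3 and COL4A6) and 3 of 6 on day 15 (COL4A1, COL4A2 and COL4A3), which is 33.3% and 50%, against 38.1% and 46.3% of all protein-coding genes. In the window, 6 of 6 were bound on day 12 (100%, against 50.9% of all) and 4 of 6 on day 15 (66.7%, against 52.9%). All 6 genes are long, 116 to 224 kb. Of 108 summits in their windows, 88% lay more than 5 kb from both ends, against 57.9% in fibrillar genes and 83.1% in other collagens. Of the 95 interior summits of type IV genes, 41 lay in COL4A1 and 39 in COL4A2. COL4A3 had 5 of its 7 window summits near an end, and COL4A6 had 3 of 3. Interior summits per kilobase, divided by the same over all protein-coding genes, were 1.11, 0.829 and 1.04 for type IV genes on day 12 and 1.41, 3.56 and 4.32 on day 15. The highest ratios of type IV genes belong to the 2 day 15 lists of set A and rest on 14 and 11 summits. COL4A1 and COL4A2 held 5 and 9 of the former and 8 and 2 of the latter, so 2 of the 6 genes carry these ratios. Fibrillar genes had interior ratios of 0.748, 0.505 and 0.831 on day 12 and 1.12, 0.86 and 2.12 on day 15. At the ends the order of these classes was the other way in 5 of 6 libraries, with fibrillar ratios of 0.862 to 1.66, type IV ratios of 0.244 to 0.945, and both at 0 in day 12 replicate 1. These class differences were described and not tested, because genes are not replicates.

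COL4A1 and COL4A2 encode the 2 chains of the common basement membrane network and share an end: their annotated spans overlap by 525 bp on chromosome 11. Within 5 kb of that shared end there were 0 summits in the 3 day 12 libraries and 1, 0 and 1 in the day 15 libraries. The interiors were dense. COL4A1 (gene ID 100515336, 76858332 to 76997409) had 0, 1 and 10 window summits on day 12 and 19, 5 and 9 on day 15. Per 10000 of the list it had 0, 0.3 and 1.73 on day 12 and 2.71, 3.02 and 7.53 on day 15, and the days did not overlap. Its most shared region (76970756 to 76971060, 26.5 kb inside the upper end) had summits in the 5 libraries other than day 12 replicate 1, at percentiles 81.4 to 95. Another 3 regions of COL4A1 (91.3, 114 and 119 kb from the lower end) had a summit in day 12 replicate 3 and all 3 day 15 libraries.

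COL4A2 (gene ID 100153454, 76996885 to 77161617) had summits in all 6 libraries, with 2, 5 and 8 on day 12 and 14, 9 and 3 on day 15. Scaled, these were 3.05, 1.5 and 1.39 against 2, 5.44 and 2.51 per 10000, so the days overlapped for COL4A2 although they did not for its neighbour. Whether the days differ more in COL4A1 than in COL4A2 was not tested. Of its regions, those 81.5 kb and 126 kb from the lower end were shared by 5 libraries. All 6 libraries also had a summit between 83.7 and 84.1 kb from the lower end, which the 200 bp rule for joining summits divides into 2 regions.

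COL4A3 and COL4A4, chains of specialised basement membranes such as that of the kidney glomerulus, overlap by 663 bp on chromosome 15 and had 0 summits within 5 kb of their shared end in any library. COL4A3 had 1 end summit in each library except day 12 replicate 1, at a region 4.95 kb outside its upper end (128768235 to 128768330) that also lies within 5 kb of MFF. The scaled values of COL4A3 (0, 0.3 and 0.173 against 0.428, 0.605 and 0.836) rest mostly on that single summit per list. COL4A4 had 0, 2 and 2 window summits on day 12 and 1, 0 and 1 on day 15. On the X chromosome, COL4A5 had 0, 2 and 2 on day 12 and 3, 0 and 0 on day 15, and COL4A6 had 0, 1 and 1 and then 1, 0 and 0. Both were thus listed only in set B.

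**Figure D3:**
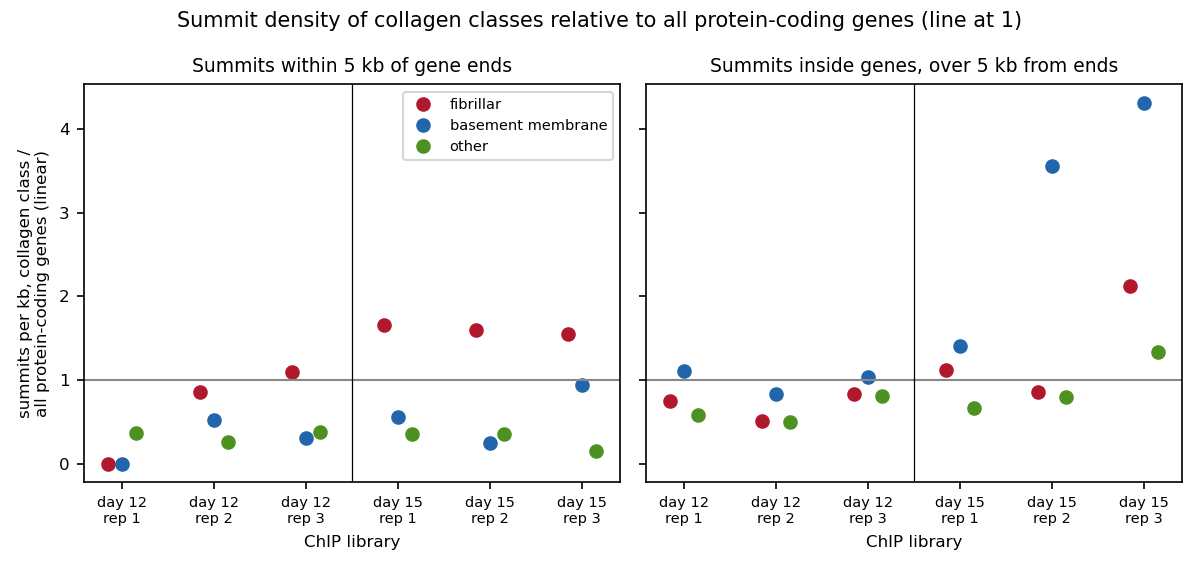
Summits per kilobase in fibrillar (red), basement membrane (blue) and other (green) collagen genes divided by the same over all protein-coding genes, per library, on a linear axis with a line at 1. Near ends (left) fibrillar genes reach 1.55 to 1.66 on day 15. In gene interiors (right) basement membrane genes reach 3.56 and 4.32 in day 15 replicates 2 and 3.

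Among the 25 other collagens, 4 were bound near an end on each day (16%, against 38.1% and 46.3% of all protein-coding genes). COL6A3, which encodes the long chain of the type VI beaded filaments around cells, was the only collagen gene with an end summit in all 6 libraries (1 of 42, or 2.38%, against 13.1% of all protein-coding genes). Its gene (ID 100101551, chromosome 15, 137011549 to 137103687) had 1, 1 and 1 end summits on day 12 and 3, 3 and 1 on day 15. The constant region of COL6A3 (137011864 to 137011962) lay 0.364 kb inside the lower end, where the summits stood at percentiles 95, 93.2 and 81.1 on day 12 and 89.7, 69.7 and 92.5 on day 15. A region 9.75 kb inside the same end had summits in 5 libraries. Next to the upper end, summits appeared only in day 15 replicates 1 and 2.

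The remaining genes bound near an end were COL10A1, COL16A1 and COL23A1 on day 12 and COL12A1, COL14A1 and COL15A1 on day 15. For COL10A1, COL14A1, COL16A1 and COL23A1 the days differed by a single library (2 of 3 against 1 of 3), and the end summits of COL10A1 and COL23A1 lay in the 3 longest lists, those of set B. COL10A1, the collagen of hypertrophic cartilage, lies within NT5DC1, with which it shares its summits. Its end summits numbered 0, 2 and 2 on day 12 and 3, 0 and 0 on day 15. COL12A1, a FACIT on fibrils of dense connective tissue, and COL15A1, a multiplexin of basement membrane zones, each had 1 end summit in day 15 replicates 1 and 2 and none on day 12. COL18A1, the multiplexin that gives endostatin, had end summits (2) only in day 15 replicate 1.

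Several long genes of this class had constant interior sites. Of 271 regions in collagen windows (summits of any library joined within 200 bp), 5 had a summit in all 6 libraries (1.85%, against 2.73% of regions genome-wide) and 11 in at least 5 (4.06%, against 5.92%). The constant region of COL14A1, a FACIT of fibril surfaces (chromosome 4, 18866952 to 18867036), lay 58.1 kb inside the upper end, at percentiles 51.6 to 98.9. That of COL22A1, a collagen of tissue junctions (chromosome 4, 4280276 to 4280314, 32.9 kb inside the upper end), reached percentiles 97.8, 98.1 and 99.4 in the 3 lists of set B and 46.2, 90.1 and 32.4 in those of set A. COL28A1 had its constant region 43 kb inside the lower end (chromosome 9, 77713868 to 77713982). Its window held 1, 3 and 12 summits on day 12 and 11, 2 and 4 on day 15. COL6A6 had a window summit in all 6 libraries as well, but no region shared by 5 or more. Together with COL5A2, COL4A2 and COL6A3, these were the 7 collagen genes with a window summit in every library (16.7%, against 18.2% of all genes).

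No summit lay in the window of 7 collagen genes in any library (16.7%, against 22.4% of all protein-coding genes). They were COL2A1 and COL11A2 of cartilage fibrils, COL9A2 and COL9A3 of the cartilage FACIT type IX, COL7A1 of epidermal anchoring fibrils, COL8A2 of the corneal Descemet membrane, and COL20A1. All are under 50 kb. Of the other cartilage chains, COL9A1 (2 summits in 6 libraries) and COL11A1 (1 summit) were nearly empty although they span 95 and 203 kb. COL10A1 went the other way, with 7 summits at a gene of 6.99 kb, which it shares with NT5DC1. COL17A1, the transmembrane collagen of hemidesmosomes, and COL13A1 had summits only in day 12 replicate 3. An absent summit means that no peak was called, and with unknown depth it does not show absence of binding.

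**Figure D4:**
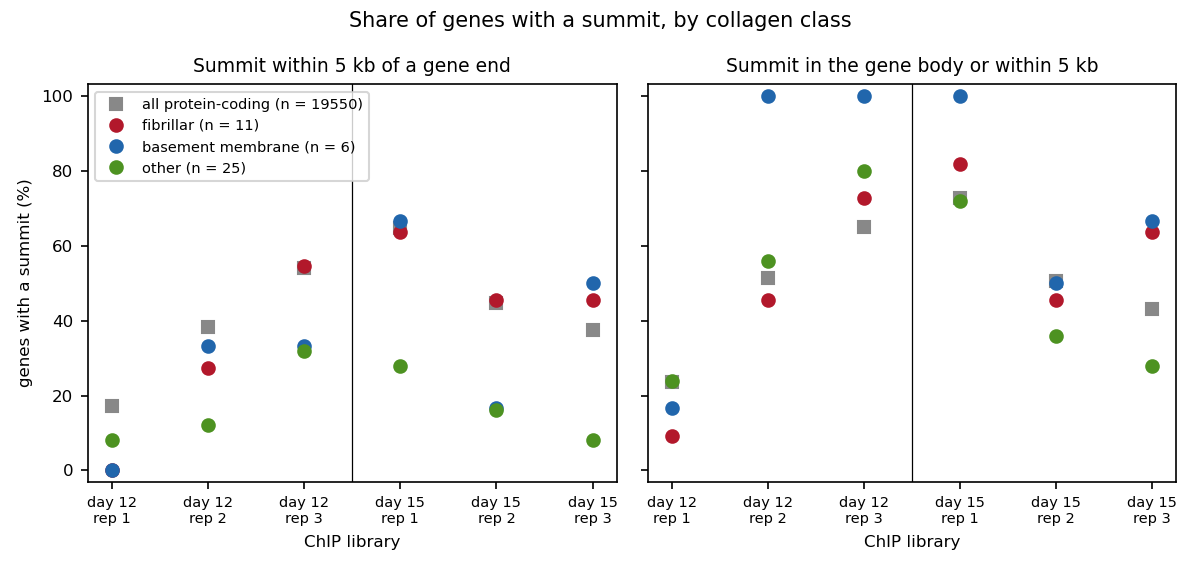
Percentage of genes with a summit in each library for fibrillar (red, n = 11), basement membrane (blue, n = 6) and other (green, n = 25) collagens and all protein-coding genes (grey squares, n = 19550). Near ends (left), other collagens lie at 8% to 32%, below all protein-coding genes in each library. In the whole window (right), basement membrane genes reach 100% in the 3 longest lists.

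Between days, 6 of 42 collagen genes had end summits in at least 2 more libraries on day 15 (14.3%, against 11.8% of all protein-coding genes): COL1A1, COL5A1, COL4A1, COL4A2, COL12A1 and COL15A1. COL4A1 and COL4A2 share the summits at their common end that put COL4A2, and in day 15 replicate 3 COL4A1, into this count. The reverse was seen for 0 collagen genes, against 1.58% of all. No collagen gene had end summits in 3 of 3 libraries of day 15 and 0 of 3 of day 12 (2.83% of all genes) or the reverse (0.0307% of all). In the whole window, COL1A1 alone had summits in at least 2 more libraries on day 15 (1 of 42, or 2.38%, against 9.31% of all), and 0 collagen genes in at least 2 more on day 12 (2.16% of all). Windows with summits in 3 of 3 libraries of a day and 0 of 3 of the other numbered 0 for collagens in both directions, against 2.16% of all genes for day 15 and 0.0358% for day 12. In the interior, COL1A1 was again the only collagen gene with at least 2 more libraries on day 15 (0.957% of all genes), and 0 had at least 2 more on day 12 (2.6% of all).

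Summits per gene window, scaled to the list, were then compared between days with limma across the 9217 protein-coding genes that had at least 6 summits over the 6 libraries, 27 of them collagen genes. The values were log2 of summits plus 0.5, divided by list length. At an adjusted p under 0.05 the limma fit called 0 genes (0% of those tested), 0 of them collagen genes, while 515 genes (5.59%) had an unadjusted p under 0.05, among them COL1A1, COL4A1 and COL5A1. With the processing set as a term, limma called 152 genes (1.65%), 43 of them higher on day 15, and the median over all genes moved from 0.09 to -0.25. COL4A1 and COL1A1 were the 2 collagen genes among them.

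COL4A1 had a day 15 minus day 12 difference of 2.29 ± 0.61 on the log2 scale (SE, limma, adjusted p = 0.855). With the set term it was 2.19 ± 0.43 (limma adjusted p = 0.000309), with values of 2.75 in set A and 1.62 in set B. For COL1A1 the difference was 2.61 ± 0.79 (SE, limma, adjusted p = 0.855), and with the set term 2.08 ± 0.49 (limma adjusted p = 0.00594), with values of 2.33 in set A and 1.82 in set B. Neither call rests on all libraries alike. With the set term, that of COL4A1 was lost without day 12 replicate 1 (1.62, limma adjusted p = 0.276) or day 15 replicate 3 (1.84, 0.207). That of COL1A1 was lost without day 12 replicate 1 (1.82, limma adjusted p = 0.379), day 12 replicate 2 (1.68, 0.11) or day 15 replicate 3 (2.06, 0.195). With lists of equal length the COL4A1 difference was 1.02 (limma adjusted p = 0.617), and COL1A1 had fewer than 6 summits. COL1A1 has no summit in 2 of its day 12 lists, so its fold depends on the added count, and with 1 summit added it was 1.39 with the set term.

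COL5A1 had a difference of 1.38 ± 0.56 (SE, limma, adjusted p = 0.855, and 0.0855 with the set term). COL1A2 and COL3A1 had differences of 1.19 ± 0.71 and 0.96 ± 0.64, with limma adjusted p of 0.896 and 0.921. For the genes with constant interior sites the differences were 0.18 ± 0.45 in COL5A2, 0.28 ± 0.55 in COL14A1 and 0.28 ± 0.56 in COL28A1 (limma adjusted p = 0.98 each). COL22A1 leaned the other way, at -0.86 ± 0.82 (limma adjusted p = 0.949), as did COL25A1 at -0.98 ± 0.58 (limma adjusted p = 0.877). Of the 27 tested collagen genes, 17 were higher on day 15 and 10 lower, while 53.6% of all tested genes were higher. The median difference was 0.32 for the collagen genes, against 0.09 over all tested genes. With the set term 16 collagen genes were higher and 11 lower, while 37.6% of all tested genes were higher. The medians were then 0.09 for the collagen genes and -0.25 for all. The list-scaled values of 5 tested collagen genes (COL1A1, COL1A2, COL4A1, COL4A3 and COL5A1) were higher in every day 15 than in every day 12 library, and those of 0 were lower. Among all tested genes these shares were 10.5% and 3.96%. The other 15 collagen genes had too few summits for this comparison.

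**Figure D5:**
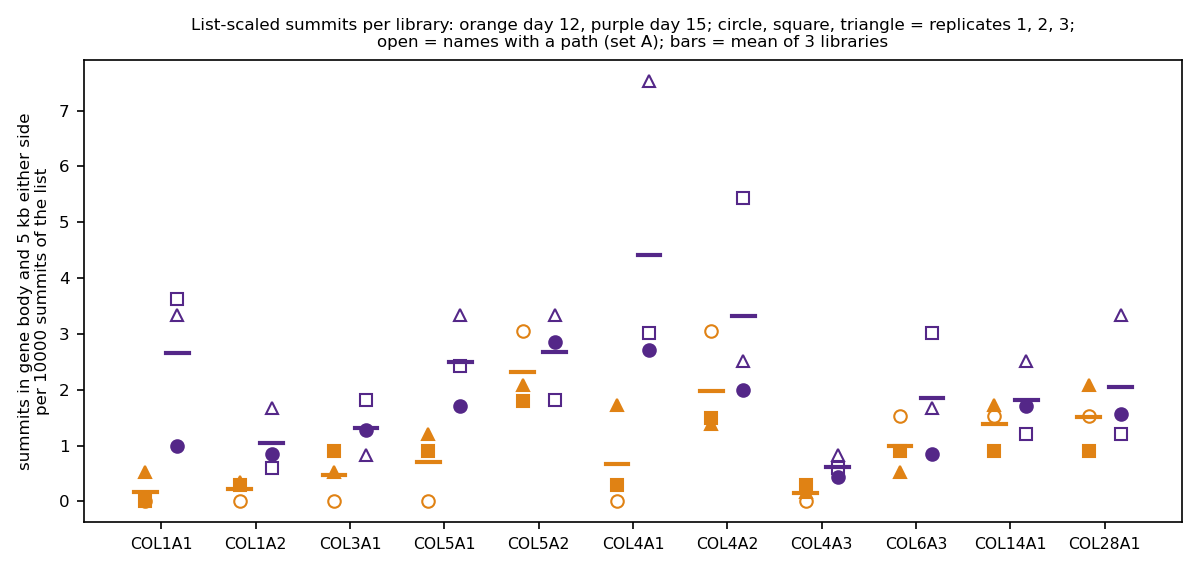
Summits in the gene body and 5 kb either side per 10000 summits of the list, for 11 selected collagen genes. Others with summits in most libraries, among them COL22A1, COL6A6 and COL16A1, are not shown. Of 27 tested collagen genes, 10 had a lower fitted value on day 15, and the figure shows only genes with a higher one. Each point is a library (orange day 12, purple day 15, marker shape for the replicate, open symbols for set A) and bars are means of 3 libraries. COL1A1 (mean 0.173 against 2.66) and COL4A1 (0.678 against 4.42) show separate days, while COL5A2 and COL14A1 overlap.

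Genes that act with collagens were bound near an end as follows. Of 32 genes for collagen synthesis and processing, 14 were bound on day 12 and 13 on day 15. The 14 became 4 without day 12 replicate 2 (16.6% of all protein-coding genes) and 5 without replicate 3 (15% of all), where both remaining libraries were needed. P4HA1 and P4HB, subunits of prolyl 4-hydroxylase, PCOLCE, an enhancer of procollagen cleavage, and TLL1, a procollagen protease, had an end summit in all 6 libraries. That is 4 of 32 genes, against 13.1% of all protein-coding genes. At least 2 more libraries on day 15 had end summits for 4 of the 32 genes (12.5%, against 11.8% of all protein-coding genes). SERPINH1, the collagen chaperone HSP47, and P3H4 went from 1 of 3 libraries on day 12 to 3 of 3 on day 15, and PLOD1 (lysyl hydroxylase) and P3H1 (prolyl 3-hydroxylase) from 0 of 3 to 2 of 3. P4HA2, P4HA3, CRTAP, COLGALT2, TLL2 and LOXL4 went from 2 of 3 to 1 of 3, and ADAMTS14 from 1 of 3 to 0 of 3. Of 9 collagen receptors matched, 4 were bound on each day, and 2 on day 12 without its replicate 2 or 3. The integrin subunit gene ITGB1 had an end summit in 0 of 3 and 3 of 3 libraries (1 of 9, against 2.83% of all protein-coding genes). DDR2, a receptor kinase for fibrillar collagen, and MRC2, which takes up collagen, had an end summit in all 6 (2 of 9, against 13.1% of all).

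Fibril-associated proteoglycans and glycoproteins had 0 of 13 genes bound on day 12 and 7 of 13 on day 15. By library, 0, 0 and 7 of them had an end summit on day 12 and 10, 4 and 4 on day 15. Without day 15 replicate 1 the 7 became 1, that of DCN (decorin, which binds fibrils), which was listed at its ends in 1 of 3 libraries on day 12 and 3 of 3 on day 15. THBS1 had them in 0 of 3 and 2 of 3. Of 15 basement membrane partners, 6 and 8 were bound. The 6 became 1 without day 12 replicate 2 or 3, and the 8 became 4 without day 15 replicate 1. AGRN (agrin) had an end summit in all 6 libraries (1 of 15, against 13.1% of all protein-coding genes). At least 2 more libraries on day 15 had end summits for 3 of the 15 (20%, against 11.8% of all). They were the laminin chain genes LAMB2 and LAMC1, in 1 of 3 and 3 of 3, and NID2, in 0 of 3 and 2 of 3. NID1 went from 2 of 3 to 1 of 3 and LAMB3 from 1 of 3 to 0 of 3. The background for these lists is the 38.1% and 46.3% of all protein-coding genes given above. With a library left out, it is 16.6% on day 12 without replicate 2, 15% without replicate 3, and 34.5% on day 15 without replicate 1.

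Markers of the cell types that endometrium holds were checked in the same way, although a summit does not show expression. Stromal fibroblast markers had 2 of 6 genes bound near an end on day 12 and 4 of 6 on day 15, and smooth muscle markers 3 and 4 of 4. The share of all protein-coding genes was 38.1% on day 12 and 46.3% on day 15. The stromal 2 became 1 and the smooth muscle 3 became 2 without day 12 replicate 2 or 3, against 16.6% and 15% of all protein-coding genes. The stromal 4 became 3 without day 15 replicate 1 or 3, against 34.5% and 42.9% of all. Epithelial markers had 3 of 5 on both days, endothelial 1 of 4 and leukocyte markers 1 of 3. Of the stromal genes, LUM had end summits only in day 15 replicate 1, and its gene family member DCN is described above. The part of cell composition in the collagen results was not tested.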

How the data were processed

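The tools were MACS2 2.1.2, SAMtools 1.9 and Bowtie2 2.3.5.1 on build susScr11, per the submitters' processing notes. How the input was used, and at which threshold peaks were called, is not given in the sources used here. The authors deposited 1 summit list per ChIP library, with a score on a −log10 scale (whether of p-values or of q-values is not stated). Scores only ranked summits within a list. Of 198341 summits, the 196220 on the 18 autosomes, X and Y were kept, and positions count from 1. Gene spans came from RefSeq (Sscrofa11.1), without strand, exons or sequence, so no sequence or motif is shown. Of 42 collagen genes, 22 have another protein-coding gene overlapping or within 10 kb, and a shared summit counts for both.

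The members, gene lists and tests were chosen with earlier results of these data known. All 42 genes are accounted for. Named with values were genes with end summits in all 6 libraries, those whose days differ by 2 or more libraries and those without summits. To these were added the 4 genes of each class with the highest number of libraries times summits per kilobase. Up to 4 genes of each other list and regions shared by at least 5 libraries were also named. Other genes and regions named were chosen after their values were seen. Gene counts have no test. The fit across genes used limma 3.58.1 (R 4.3.3) with Benjamini-Hochberg adjustment and was tested on simulated data. The simulated lists had no processing set effect and only random (Poisson) spread between libraries. They therefore do not show how the fit behaves with the set differences of these lists.

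Alternatives were other windows, score thresholds, list lengths and added counts, the processing set or replicate number as a term, and each library left out. The libraries are not stated to be separate animals, so p-values measure only their spread, which may be technical. Replicate numbers are shared between days, but the labels do not say that they pair libraries.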

Additional observations from a re-analysis of the deposited data

How the results depend on the processing

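Counts of bound collagen genes (near ends 9 on day 12 and 12 on day 15, in the window 25 and 22) stayed within 1.5 times with a score of at least 5, a common lowest score, a window of 10 kb and counting each summit for its nearest gene only. With the 6557 highest-scoring summits of each list they were 1, 3, 7 and 9, against 9.68%, 20.3%, 17.3% and 25.5% of all genes, and the collagen-to-all density ratio became 0.409 instead of 0.608. With all 3 libraries of a day required they were 1, 7, 8 and 13, against 14.8%, 33.7%, 21.6% and 39.1%. A window of 1 kb gave 3 genes near ends on day 12, against 21.2% of all. In these settings the end counts stayed below the share of all genes. Leaving out each library in turn gave 1 to 9, 7 to 12, 8 to 25 and 13 to 22 genes, a difference per library of 0.667 to 7.67 genes and a density ratio of 0.571 to 0.658.

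The fit across genes called 0 genes, 1 with a prior count of 1, 2 without the filter, 25 with equal lists and 152 with the set term, 2 of the last being collagen genes. Leaving out each library gave 0 to 169 genes and 0 to 2 collagen genes. Without day 12 replicate 1, COL1A1 and COL4A1 were called (limma adjusted p = 0.000496 and 0.000458). The replicate block gave 0 genes, as without it. The deviations of same-numbered libraries correlated at -0.54, -0.12 and -0.35. Each same-numbered pair crosses the processing sets, so these values do not show whether the numbers pair libraries.

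Chosen after seeing the data were scaling by summits in gene windows (0 genes, and 231 with the set term, 3 of them collagen genes), the set term with a prior count of 1 (215 and 3) or with equal lists (28 and 0), and the set term without each library. The last gave 3 to 507 genes and 0 to 3 collagen genes, in the order of the libraries 7, 29, 138, 507, 87 and 3 genes and 0, 1, 2, 3, 2 and 0 collagen genes. The collagen gene beyond COL1A1 and COL4A1 was COL22A1, lower on day 15, under the scaling (-1.62, limma adjusted p = 0.0453) and the prior count of 1 (-1.39, 0.037), and COL5A1 without day 15 replicate 1 (2.07, 0.00783). Depth is unknown in all lists, which limits every statement about missing summits.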
